A study of Mus musculus with 21 samples.

Results

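The genes followed here are 10 components of the mammalian circadian clock, Per1, Per2, Per3, Cry1, Cry2, Clock, Nr1d1, Nr1d2, Dbp and Tef, taken by symbol from the 25239 gene symbols of the choroid plexus and hypothalamus expression tables. All 10 were present in both tables and passed the minimum mean value of 10 in both. The study sequenced messenger RNA in bulk from wild-type C57BL/6J mice. Choroid plexus, the secretory epithelium of the brain ventricles, gave 6 libraries with Ins2, a mouse insulin gene, overexpressed in the choroid plexus and 5 libraries from controls given no treatment. Hypothalamus gave 5 libraries from mice with the same choroid plexus overexpression and 5 control libraries. The labels give no vector, promoter, age, sex or time of collection, and they tie no choroid plexus library to a hypothalamus library of the same mouse. Control columns of the hypothalamus table are named with a GFP prefix that the labels do not mention, and what it stands for was not resolved. No label says that replicates were separate animals, so the p-values measure the spread between these libraries, which may be technical.

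The clock is a transcriptional loop that runs in nearly every mammalian cell. CLOCK pairs with BMAL1, the product of Arntl, binds E-boxes and activates the Per and Cry genes, whose proteins then repress CLOCK and BMAL1. In a connected loop the nuclear receptors REV-ERBα and REV-ERBβ, encoded by Nr1d1 and Nr1d2, repress Arntl. The PAR bZIP factors DBP and TEF are themselves clock-driven and act on D-boxes. Across the day Arntl transcripts run roughly opposite to those of the Per genes, Nr1d1 and Dbp. The suprachiasmatic nucleus, part of the hypothalamus, is the master pacemaker, and the choroid plexus is known for a strong clock of its own. Because no collection time was given, phase could be described only as which members moved together or apart from library to library.

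Promoter stretches are shown for 5 members: Per3 with Tef and Cry1 with Nr1d1, the pairs with the highest and the lowest correlation across choroid plexus libraries, and Per1, which held both an E-box and a D-box. They come from RefSeq windows of 300 bases (250 before to 50 after a start, GRCm38.p6), and only bases outside annotated exons are printed, 5′ to 3′ on the gene's strand. Of the 10 members, 9 matched the table, with 13 windows, and Per2 was not among them. The search covered both strands for the E-box CACGTG, the E-prime box CACGTT, the D-box TTATGTAA or TTATGCAA, the cyclic AMP response element TGACGTCA and the ROR half-site AGGTCA. The E-box and E-prime box differ only in their last letter. Capitals mark E-boxes, E-prime boxes and D-boxes. Shown in turn are Per3 at chr4:151044666-151044915 (minus strand), Per1 at chr11:69098699-69098947 (plus strand), Tef at chr15:81811164-81811413 (plus strand), Cry1 at chr10:85185065-85185304 (minus strand) and Nr1d1 at chr11:98775378-98775627 (minus strand).
Per3: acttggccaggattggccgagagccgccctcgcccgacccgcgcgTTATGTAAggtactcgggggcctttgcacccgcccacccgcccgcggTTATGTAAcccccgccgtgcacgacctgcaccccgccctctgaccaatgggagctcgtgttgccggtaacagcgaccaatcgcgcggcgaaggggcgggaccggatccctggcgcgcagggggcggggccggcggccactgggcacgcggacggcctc
Per1: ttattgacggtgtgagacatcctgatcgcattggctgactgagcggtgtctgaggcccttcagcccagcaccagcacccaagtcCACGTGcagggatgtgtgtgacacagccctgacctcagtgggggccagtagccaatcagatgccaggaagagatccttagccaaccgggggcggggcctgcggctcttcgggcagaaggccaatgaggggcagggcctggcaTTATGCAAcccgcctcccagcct
Tef: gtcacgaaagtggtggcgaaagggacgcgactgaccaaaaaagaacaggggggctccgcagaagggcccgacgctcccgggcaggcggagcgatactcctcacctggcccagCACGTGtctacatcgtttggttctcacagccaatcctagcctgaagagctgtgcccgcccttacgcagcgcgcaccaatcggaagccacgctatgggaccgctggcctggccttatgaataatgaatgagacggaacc
Cry1: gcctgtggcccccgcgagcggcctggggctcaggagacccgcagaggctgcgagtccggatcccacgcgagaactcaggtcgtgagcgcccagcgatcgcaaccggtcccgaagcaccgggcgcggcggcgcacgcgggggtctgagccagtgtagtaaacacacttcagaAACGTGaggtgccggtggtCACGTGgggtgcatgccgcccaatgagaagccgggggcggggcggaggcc
Nr1d1: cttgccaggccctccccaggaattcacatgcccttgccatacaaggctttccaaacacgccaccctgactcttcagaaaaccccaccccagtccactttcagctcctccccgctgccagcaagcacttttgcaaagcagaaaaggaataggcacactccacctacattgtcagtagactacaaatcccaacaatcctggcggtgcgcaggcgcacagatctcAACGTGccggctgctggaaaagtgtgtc

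Per3 carried 2 D-boxes, Per1 an E-box and a D-box, Tef an E-box, Cry1 an E-box and an E-prime box, and Nr1d1 an E-prime box. Of the 13 full windows of the 9 matched members, 4 held an E-box (2 of them those of Tef), 3 an E-prime box, 2 a D-box, 3 a ROR half-site and 0 a cyclic AMP response element. Among all 32851 windows of the same length, 7.15% held the E-box, 4.68% the E-prime box, 1.66% the D-box, 1.79% the cyclic AMP response element and 16.3% the ROR half-site. A match describes letters and is not a measured binding site.

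Values are size-factor-scaled read counts, in which each library's reads are divided by a scaling factor. Total reads were 25.95 to 36.3 M per library in choroid plexus and 27.4 to 62.1 M in hypothalamus. Members held 327 to 5605 reads per library in choroid plexus and 752 to 20743 in hypothalamus, for a counting error of 0.0193 to 0.0798 and of 0.0100 to 0.0526 log2 units. The tissue labels held for Ttr, the choroid plexus transthyretin gene. It stood at 3099110.1 or more in each choroid plexus library and at 35.8 or less in each hypothalamus library. In hypothalamus all 11 hypothalamic neuron markers passed the minimum. Choroid plexus control 2 also held markers of other tissue. Its 11 hypothalamic neuron markers summed to 678 against at most 85.6 in the other choroid plexus libraries, with Avp alone at 577. Ins2 was 387 to 501 in choroid plexus controls and 598 to 1041 in the Ins2 libraries, a 1.90-fold difference (limma adjusted p = 0.00594). In hypothalamus Ins2 was listed at 0 in 9 of 10 libraries. The tables were scaled separately, so levels were compared only within a tissue.

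Per2, a repressor of the loop, had the largest difference of any member in choroid plexus. The controls 1 to 5 held 978, 998, 1012, 1174 and 858. The Ins2 libraries ran from 1079 through a median of 1290.5 to 1764, and 5 of 6 exceeded the highest control. The ranges overlapped only where Ins2 library 4, at 1079, fell below control 4. Means were 1004 ± 113 (SD, n = 5) and 1364 ± 257 (SD, n = 6), or 1.35-fold (95% interval 1.15 to 1.57). The log2 difference of 0.43 ± 0.11 (SE) had an unadjusted limma p of 0.000824 and an adjusted p of 0.414, short of the 0.05 threshold, and the exact two-sided permutation test over 462 splits gave p = 0.0108. DESeq2 on the recovered whole reads passed it (log2 difference 0.44, adjusted p = 0.0179, 34 of 4951 genes or 0.687% called), whereas edgeR's quasi-likelihood test on the same reads did not (0.45, adjusted p = 0.473). DESeq2 adjusted over the 4951 genes left by its own filter, and limma and edgeR over 14533. In a bulk sample, more Per2 RNA per cell and more cells of a Per2-rich type cannot be told apart. None of the 8 macrophage and microglia markers was at 0 in every library. They summed to 1045 to 3762 in controls and 2343 to 5249 in Ins2 libraries. Of 7 tested, 5 lay above 0 and 0 passed. At an unadjusted limma p under 0.05 stood 2 of the 7, against 6.21% of all genes. In Ins2 library 1, which had the highest sum, Cd74 alone held 3030 of the 5249. Other lists mostly leaned lower with Ins2. Above 0 lay 0 of 6 astrocyte, 2 of 6 oligodendrocyte, 1 of 6 endothelial and 1 of 6 fibroblast and meningeal markers. Of choroid plexus epithelium markers 3 of 10 did, of hypothalamic neuron markers 2 of 3 tested and of thalamus markers 3 of 4 tested. The part of any of these markers in the Per2 difference was not tested. Without controls 2 and 5, both described further on, the Per2 difference was 0.35 (limma adjusted p = 0.672).

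**Figure D1:**
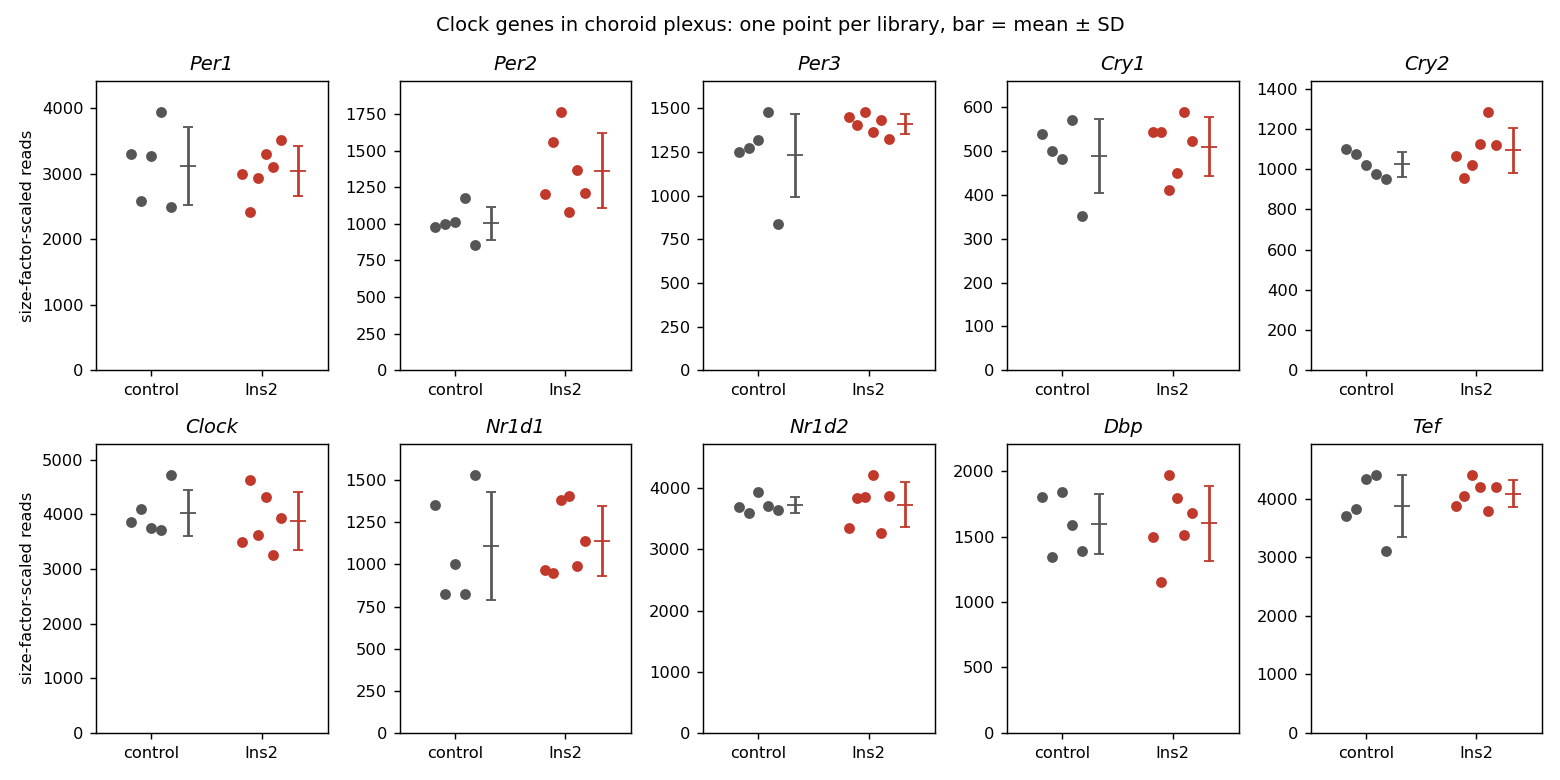
Size-factor-scaled reads (vertical axis, starting at 0) of the 10 clock genes in the 5 control and 6 Ins2 choroid plexus libraries, one point per library, with the mean and SD beside each group. For Per2, 5 of 6 Ins2 points lie above the highest control, and control 5 is the low point at 838 for Per3 and 353 for Cry1.

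Per3, a PER paralog, held 1248, 1275, 1319, 1477 and 838 in controls 1 to 5. Its Ins2 libraries lay between 1326 and 1479, with a median of 1419, inside a narrow band that 1 control, control 4, also reached. The log2 difference was 0.22 ± 0.10 (SE; limma unadjusted p = 0.0457, adjusted p = 0.797; exact permutation p = 0.0433). Control 5 carried much of it: without that library the difference was 0.09 (limma adjusted p = 0.819). Per1, a PER repressor that light and hormones can induce, as they can Per2, was 3304, 2585, 3266, 3943 and 2488 in the controls and 2412 to 3520.2, median 3055, in the Ins2 libraries. Every Ins2 value of Per1 lay below the highest control, and the log2 difference was -0.02 (95% interval -0.24 to 0.20).

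The cryptochromes, which repress together with the PER proteins, overlapped throughout. Cry1 was 539.6, 500.01, 483, 572 and 353 in the controls and 410.5 to 589.6, median 534, in the Ins2 libraries (log2 difference 0.07, 95% interval -0.18 to 0.32). Cry2 was 1098, 1074, 1021, 977 and 949.8 in the controls and 958 to 1284, median 1092, in the Ins2 libraries, with 3 of 6 above the highest control (0.09, -0.06 to 0.25). Clock, the activator, was 3861, 4089.6, 3747, 3707 and 4723 in the controls and 3253 to 4634, median 3776, in the Ins2 libraries (-0.06, -0.24 to 0.11). Clock values of the groups were interleaved.

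Nr1d1 was the most variable member in choroid plexus. Controls 1 to 5 held 1351, 826, 1001, 827 and 1533, and the Ins2 libraries 949 to 1407, median 1065. The controls alone spanned both sides of every Ins2 value, and the log2 difference was 0.07 (95% interval -0.25 to 0.38). Its paralog Nr1d2 was the steadiest member, at 3694, 3599.9, 3941, 3710.1 and 3644 in the controls and 3259 to 4219, median 3852, in the Ins2 libraries (0.00, -0.13 to 0.13). Dbp was 1803, 1343, 1840.3, 1592 and 1391 in the controls and 1152 to 1973, median 1598, in the Ins2 libraries (0.00, -0.24 to 0.24). Tef was 3715, 3834, 4343, 4403 and 3105 in the controls and 3791 to 4415, median 4127, in the Ins2 libraries (0.09, -0.07 to 0.24). Both D-box factors therefore had fully overlapping groups.

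Across the 10 members in choroid plexus, 0 passed the limma test, where 0.0138% of all 14533 genes tested did. At an unadjusted limma p under 0.05, 2 of 10 passed, Per2 and Per3, both higher with Ins2, against 6.21% of all genes in either direction (2.54% higher and 3.67% lower). edgeR called 0 members, where it called 0.0138% of all genes. DESeq2 called 1 of the 8 members it gave an adjusted p, where 0.687% of its genes were called. Cry1 and Cry2 got no adjusted p from it. None of the 10 had non-overlapping groups, where 0.626% of all genes had. The member median log2 difference was 0.07 and that of all genes was 0.00. For 9 of 10 members the 95% interval lay within 0.5 log2 units of 0, and Per2 was the exception.

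Hypothalamic Per2 was 1438, 1194, 1551, 1149 and 1094 in controls 1, 2, 3, 4 and 6. The 5 Ins2 libraries held 1411, 1464, 1552, 1366 and 1441. The Ins2 values formed a tight cluster near the upper controls, and 3 of 5 controls lay below all of them. The log2 difference was 0.18 ± 0.08 (SE), or 1.14-fold (95% interval 1.01 to 1.28; limma unadjusted p = 0.0383, adjusted p = 0.477; exact permutation p = 0.119 over all splits, where the smallest possible p is 0.00794). Leaving out single libraries moved it between 0.13 and 0.25.

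**Figure D2:**
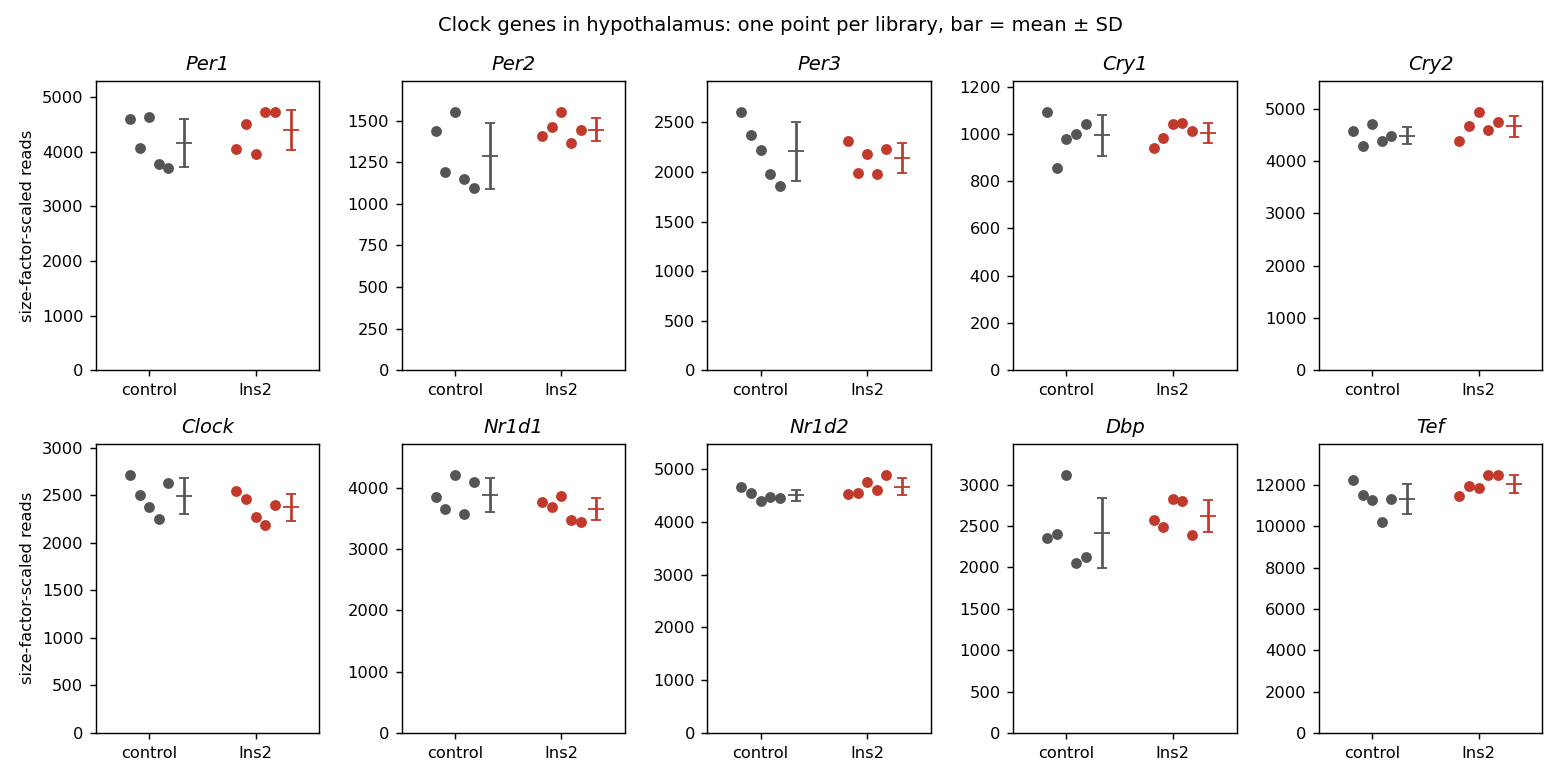
Size-factor-scaled reads (vertical axis, starting at 0) of the 10 clock genes in the 5 control and 5 Ins2 hypothalamus libraries, one point per library, with the mean and SD beside each group. The groups overlap for every gene, and the 5 Ins2 values of Per2 lie between 1366 and 1552.

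Per1 in hypothalamus was 4591, 4059, 4629.9, 3769 and 3705 in the controls and 4046, 4508, 3964, 4719 and 4725 in the Ins2 libraries (log2 difference 0.08, 95% interval -0.06 to 0.22). Per3 was 2605, 2376, 2219, 1978 and 1863 in the controls and 2312, 1987, 2180.1, 1975 and 2233 in the Ins2 libraries (-0.04, -0.20 to 0.12). Of the PER genes, Per3 thus had its highest values in control libraries and Per1 in Ins2 libraries, with overlap in both. Cry1 was 1093, 858, 979, 1001 and 1040.3 in the controls and 941, 983, 1040.3, 1046 and 1013 in the Ins2 libraries (0.02, -0.13 to 0.17). Cry2 was 4580.4, 4283, 4698, 4382 and 4478 in the controls and 4391, 4673, 4937, 4589 and 4745 in the Ins2 libraries (0.06, -0.04 to 0.15). Control and Ins2 values of both cryptochromes were interleaved.

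Clock was 2716, 2508, 2375, 2249 and 2625 in the hypothalamic controls and 2545, 2463, 2272, 2187 and 2398 in the Ins2 libraries (log2 difference -0.07, 95% interval -0.19 to 0.05). Nr1d1 was 3848, 3651, 4211, 3565 and 4094 in the controls and 3766, 3685, 3861, 3480.3 and 3447 in the Ins2 libraries (-0.09, -0.20 to 0.03). Clock and Nr1d1 both had their highest values in controls and their lowest in Ins2 libraries, without a gap between groups. Nr1d2 was 4652, 4542, 4387, 4473 and 4449 in the controls and 4527, 4546, 4762, 4597 and 4892 in the Ins2 libraries (0.05, -0.04 to 0.14). Dbp was 2355, 2401, 3119.9, 2058 and 2126 in the controls and 2571, 2493, 2829, 2804 and 2389 in the Ins2 libraries (0.13, -0.05 to 0.31). For Dbp the control 3 value was the highest of all and the other 4 controls lay below 4 of the 5 Ins2 values. Tef was 12225, 11513, 11287, 10215 and 11345 in the controls and 11480.0, 11931, 11866, 12466 and 12496 in the Ins2 libraries (0.09, 0.00 to 0.19; limma unadjusted p = 0.0575, adjusted p = 0.520).

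In hypothalamus 0 of 10 members passed the limma test, where 0% of all 16363 genes tested did. At an unadjusted limma p under 0.05, 1 of 10 passed, Per2, against 9.92% of all genes in either direction (5.85% higher and 4.08% lower). edgeR's quasi-likelihood test called 0 members and 0 genes, and DESeq2 called 0 of the 8 members it gave an adjusted p, where 0.696% of its genes were called. Per2 and Cry1 got no adjusted p from DESeq2, whose unadjusted p for them was 0.0522 and 0.861. None of the 10 had non-overlapping groups, against 1.5% of all genes. The member median log2 difference was 0.05 and that of all genes 0.00, and all 10 intervals lay within 0.5 log2 units of 0.

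Log2 differences were above 0 for 7 of 10 members in each tissue, where 48.4% of all genes tested in choroid plexus and 50.3% in hypothalamus were. The sign was the same in both tissues for 6 members: Per2, Cry1, Cry2, Nr1d2 and Tef above 0 and Clock below. Tested directly as choroid plexus minus hypothalamus, the Ins2 effect on Per2 differed by 0.25 (95% interval -0.03 to 0.52; limma-based unadjusted p = 0.0791, adjusted p = 0.538) and that on Per3 by 0.26 (0.00 to 0.52; unadjusted p = 0.0511, adjusted p = 0.474). These intervals and p-values treat the tissues as independent, which the labels do not settle. None of the 10 members passed, where 0.107% of 13997 genes did, and 0 had an unadjusted p under 0.05, where 10.6% of genes had. The remaining differences ran from -0.13 for Dbp to 0.15 for Nr1d1.

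**Figure D3:**
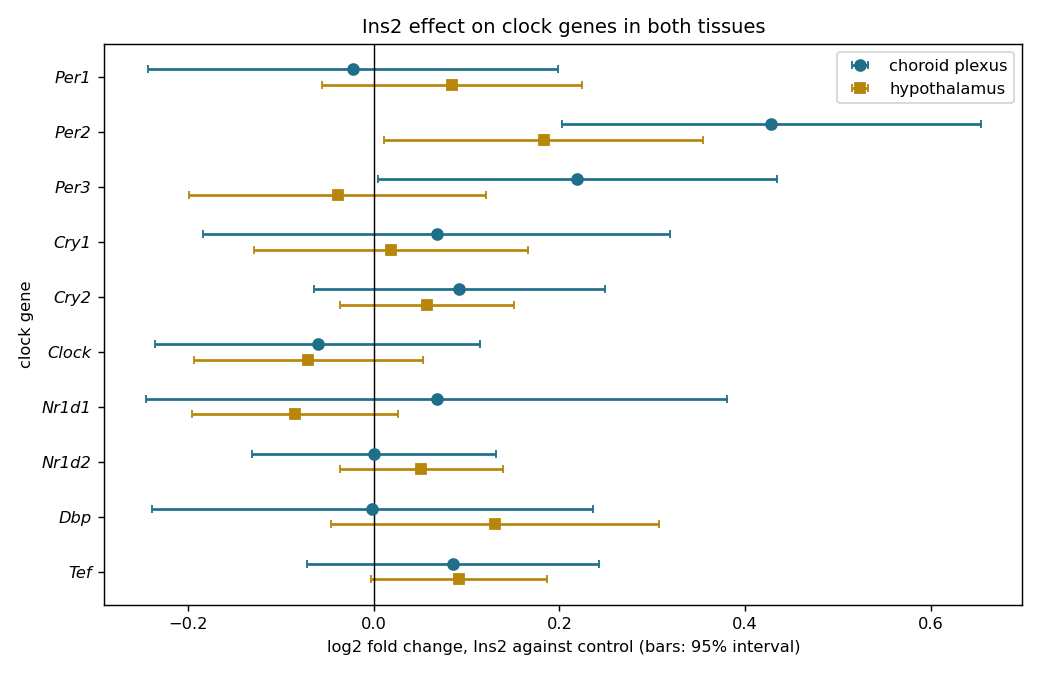
Log2 fold change of each clock gene, Ins2 against control (horizontal axis), with its 95% interval from limma, in choroid plexus (circles) and hypothalamus (squares). Per2 lies highest in both tissues, at 0.43 and 0.18, and no member passed the adjusted threshold.

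Levels per kilobase of annotated exon ordered the members differently in the 2 tissues. In choroid plexus controls Nr1d2 was highest at 687 ± 24.4 (SD, n = 5), followed by Per1 at 554 ± 106, Dbp at 533 ± 76.3 and Tef at 493.2 ± 67.2, each overlapping its neighbour. Nr1d1 (359.9) and Clock (293) followed, then a gap, then Per2 (171), Cry2 (162), Cry1 (147) and Per3 (128), whose ranges again overlapped in turn. In hypothalamus controls Tef led at 1439 ± 91.6 (SD, n = 5), overlapping Nr1d1 at 1259 ± 90.2. A gap separated Nr1d1 from Nr1d2 (832), Dbp (806), Per1 (737) and Cry2 (709.5), and another separated those from Cry1 (298), Per3 (229.8), Per2 (219) and Clock (182). By mean, Clock was thus lowest in hypothalamus and mid-ranked in choroid plexus. Its range in hypothalamus controls, 164 to 198, overlapped that of Per2, 187 to 265. Clock also had the most annotated exon bases of the members, 13727, and whether all of them were transcribed here was not tested. Exon overlap with genes on the opposite strand made some levels uncertain, since the strand setting of the counting is not given: 18.01% of Dbp exon bases lay against Sphk2, 8.55% of Nr1d1 against Thra, 4.67% of Cry2 against D930015M05Rik and 2.45% of Tef against Gm17597. The other 6 members had no such overlap.

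All 10 members varied more between libraries of a group in choroid plexus than in hypothalamus, a direction that 68.1% of the 13997 genes tested in both shared. The within-group SD ran from 0.111 (Nr1d2) to 0.333 log2 units (Nr1d1) in choroid plexus, with a median of 0.218 against 0.161 for all genes. In hypothalamus it ran from 0.0410 (Nr1d2) to 0.183 (Dbp), with a median of 0.101 against 0.135 for all genes. Nr1d2 was the steadiest in both tissues, and 98.6% of hypothalamic genes had a larger SD. The figures for all genes include genes down to a mean value of 10, and no set matched for level was compared.

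Single libraries set several of the extremes. Choroid plexus control 5 held the lowest value of 5 members, Per2, Per3, Cry1, Cry2 and Tef, and the highest of 2, Clock and Nr1d1. The same library had the highest Arntl, at 324 against 154 to 259.96 in the other 10, and the lowest Ciart, a clock-driven repressor of CLOCK and BMAL1, at 126. Its macrophage and microglia markers were also the lowest, summing to 1045 against 2033 or more elsewhere, and their part in its clock values was not tested. Of the 1045, 439 came from Cd74 alone. Choroid plexus control 2 stood apart in another way, with Mbp, a myelin gene, at 25151 against at most 3333 in the other libraries. It was lowest for 1 member, Nr1d1. Its 6 oligodendrocyte markers summed to 52264 against at most 5531 elsewhere in that tissue, and its 6 astrocyte markers to 8545 against at most 2568. The part of such tissue in the clock values of choroid plexus control 2 was not tested. In hypothalamus, control 6 held the lowest Per1, Per2 and Per3, the lowest Ciart (439.7) and the highest Npas2 (497), a Clock paralog, with Arntl second highest at 998. Hypothalamic control 4 was below its group mean for 9 of 10 members. Hypothalamic control 2, lowest for Cry1 and Cry2, was also lowest for the suprachiasmatic genes Vip (65.0 against 384 or more elsewhere), Nms (10.3 against 22.8 or more) and Prok2 (13.7 against 38.1 or more). These were picked from 11 listed suprachiasmatic genes after their values were seen. Avp, also listed, was 8924 in control 2 and lower, at 8113, in control 4. The part of these genes in the clock values of control 2 was not tested.

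**Figure D4:**
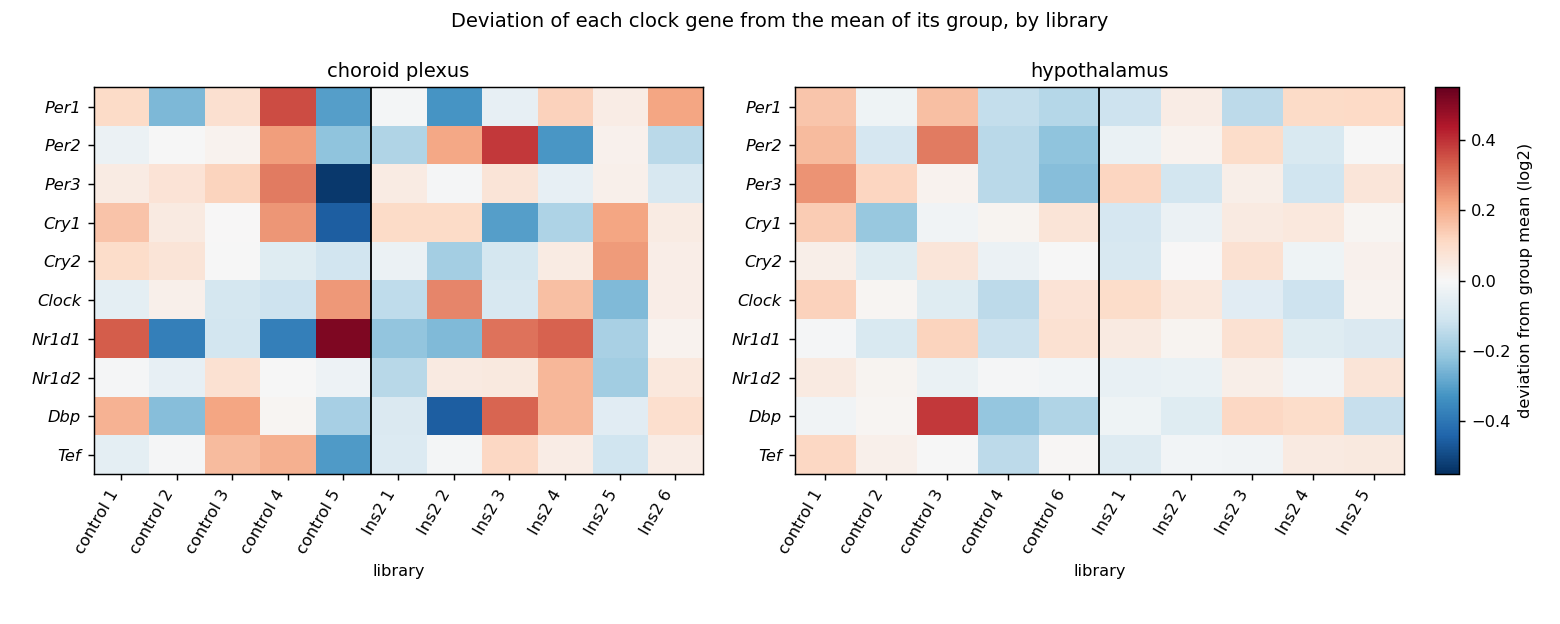
Deviation of each clock gene (rows) from the mean of its own group on the log2 scale (colour) in every library (columns), with a line between control and Ins2 libraries. Choroid plexus control 5 combines low Per2, Per3, Cry1 and Tef with high Clock and Nr1d1, and deviations are paler in hypothalamus.

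To ask which members moved together, deviations from group means were correlated over the 11 choroid plexus and the 10 hypothalamus libraries, with exact p-values over all 86400 and 14400 orders within groups. No pair of the 45 passed after Benjamini-Hochberg adjustment in either tissue (smallest adjusted p from the exact tests 0.182 and 0.680), and 7 and 3 pairs had an unadjusted exact p under 0.05. The share of such pairs among all genes is not given here. In choroid plexus Per3 and Tef gave the highest r, 0.83 (exact p = 0.0295, adjusted p = 0.215; Spearman's rho 0.59, exact p = 0.0546). Without the 2 libraries farthest from the Per3 median, controls 4 and 5, r was 0.25. Dropping the farthest libraries also narrows the spread of Per3, so the lower r cannot show what the relation rested on. Cry1 and Nr1d1 ran apart with r = -0.75 (exact p = 0.0104, adjusted p = 0.182; rho -0.57, exact p = 0.117), and r was -0.49 without control 5 and Ins2 library 3. Per1 and Dbp varied together with r = 0.66 (exact p = 0.0335, adjusted p = 0.215; rho 0.55, exact p = 0.102), and r was 0.34 without control 5 and Ins2 library 2.

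Per2 and Per3 gave r = 0.54 in choroid plexus (exact p = 0.0107, adjusted p = 0.182; rho 0.62, exact p = 0.0153), and r was 0.67 without Ins2 libraries 3 and 4. Per3 ran opposite to Clock (r = -0.61, exact p = 0.0122, adjusted p = 0.182; rho -0.58, exact p = 0.020) and to Nr1d1 (r = -0.65, exact p = 0.0328, adjusted p = 0.215; rho -0.53, exact p = 0.109). Without controls 4 and 5 these were -0.49 and -0.22. Nr1d2 and Tef gave r = 0.48 (exact p = 0.0260, adjusted p = 0.215; rho 0.69, exact p = 0.0163) and 0.49 without Ins2 libraries 4 and 5. Leaving out control 5 alone took Per3 and Cry1 from 0.71 to 0.12 and Per3 and Tef to 0.46, while Nr1d1 and Dbp went from 0.45 to 0.78.

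In hypothalamus Per2 and Dbp gave the highest r, 0.75 (exact p = 0.0449, adjusted p = 0.680; rho 0.62, exact p = 0.136), which was 0.35 without controls 3 and 6. Per1 and Tef gave 0.68 (exact p = 0.0453, adjusted p = 0.680; rho 0.58, exact p = 0.107) and 0.85 without the same libraries. Per2 and Cry2 gave 0.66 (exact p = 0.0242, adjusted p = 0.680; rho 0.75, exact p = 0.0158) and 0.71 without them. Of the 45 pairs, 36 were positive in hypothalamus and 24 in choroid plexus, and 27 had the same sign in both tissues. No share among pairs of all genes stands beside these counts, so they are not read as a trait of the clock genes.

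**Figure D5:**
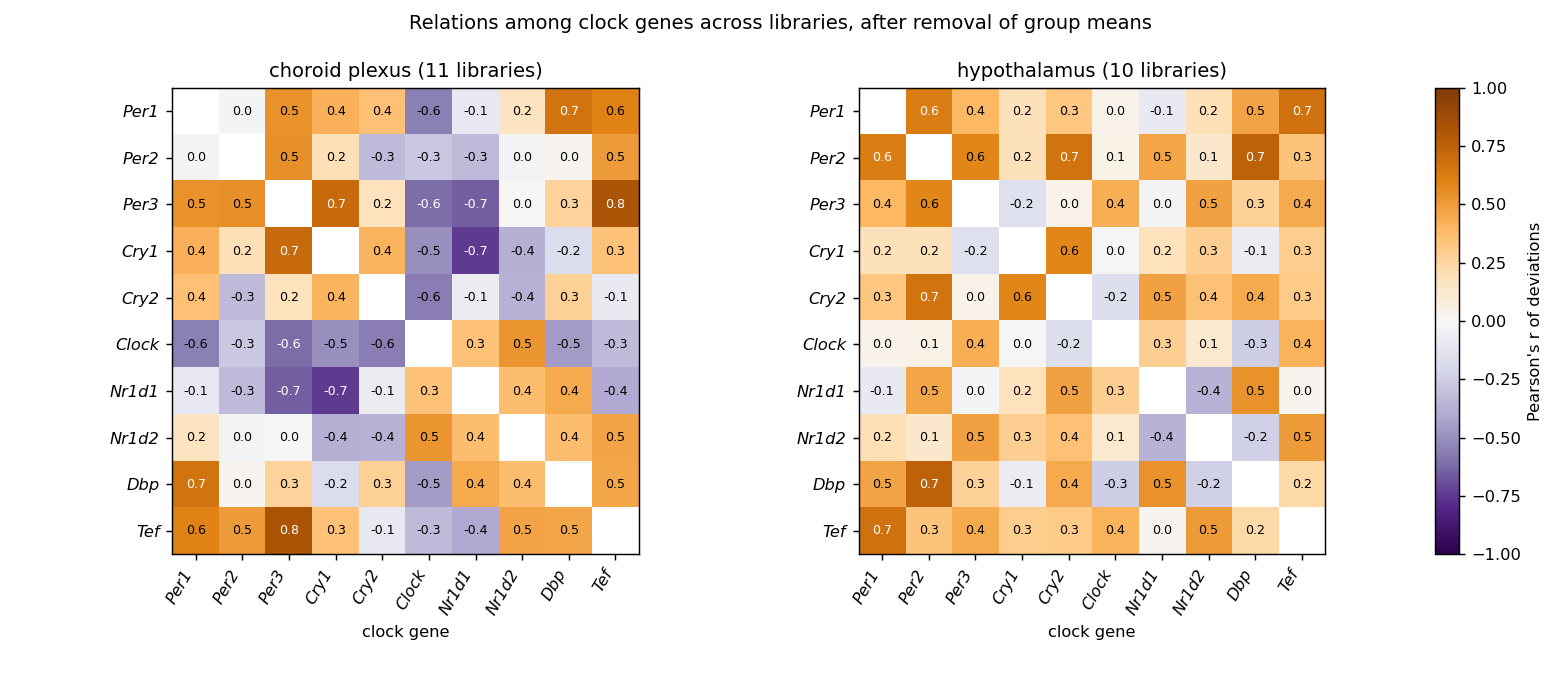
Pearson's r of the deviations from group means for each pair of clock genes in choroid plexus (11 libraries) and hypothalamus (10 libraries), orange for positive and purple for negative. The darkest cells are Per3 with Tef (0.83) and Cry1 with Nr1d1 (-0.75) in choroid plexus, and none of the 45 pairs passed adjustment in either tissue.

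The genes outside the members whose deviations were most like those of Per2 in choroid plexus were Maco1 (r = 0.93), Serinc2 (0.93), Aspn (0.92), Pom121 (0.90) and Slc35c2 (0.90), over 11 libraries. For Dbp they were Zic5 (0.95), Kctd5 (0.95), Phf13 (0.92), Spag8 (0.89) and Rassf7 (0.89). In hypothalamus, over 10 libraries, the nearest to Per2 were Fhl1 (0.94), Myo19 (0.91), Sptbn5 (0.91), Pald1 (0.91) and 5031410I06Rik (0.91), and the nearest to Dbp were Mlxipl (0.94), Zfyve21 (0.92), 4930429B21Rik (0.91), Scarf1 (0.90) and Tmc6 (0.90). No gene was among the 5 nearest to the same member in both tissues. These are the highest of as many correlations as genes were tested, over few libraries, and are given without a test.

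Of 21 other clock genes, 20 were tested in choroid plexus, with 12 above 0 and 0 passing, and 21 in hypothalamus, with 16 above 0 and 0 passing. Their median log2 difference was 0.02 and 0.04. Arntl, the partner of Clock, was 199 ± 70.9 (SD, n = 5) in choroid plexus controls and 210.3 ± 29.8 (SD, n = 6) with Ins2 (log2 difference 0.13 ± 0.17 SE). In hypothalamus it was 915 ± 75.1 and 942 ± 40.5 (SD, n = 5 each; 0.04 ± 0.07 SE). Npas2 differed by 0.12 in choroid plexus and by -0.24 in hypothalamus (limma adjusted p = 0.910 and 0.518). Ciart differed by 0.23 and 0.03, Hlf, the other PAR bZIP gene, by 0.06 and 0.04, Nfil3, which opposes DBP and TEF at D-boxes, by -0.09 and -0.11, and Bhlhe41, an E-box repressor, by -0.03 and 0.06. At an unadjusted limma p under 0.05 stood Rora in choroid plexus and Rora, Arntl2 and Fbxl21 in hypothalamus, named after their values were seen, against 6.21% and 9.92% of all genes. Rora encodes the activator that competes with the REV-ERB proteins. It was 2118 to 2403 in choroid plexus controls and 1772 to 2269 with Ins2 (-0.18 ± 0.07 SE), and 1309 to 1523 in hypothalamic controls and 1553 to 1649 with Ins2 (0.16 ± 0.06 SE), where the groups did not overlap. Arntl2, an Arntl paralog, did not overlap either, at 415 to 527 in hypothalamic controls and 347 to 399.6 with Ins2 (-0.24 ± 0.09 SE; limma adjusted p = 0.428). These 2 of 21 genes stand against 1.5% of all genes without overlap. Fbxl21, which encodes an F-box protein acting on cryptochromes, was 239 to 324 in hypothalamic controls and 295 to 389 with Ins2 (0.29 ± 0.12 SE; limma adjusted p = 0.426). The difference of the Rora effect between the tissues was -0.34 (95% interval -0.51 to -0.16; limma-based unadjusted p = 0.000372, adjusted p = 0.115), which missed the threshold. Rora was also on a list of 5 thalamus markers. Of these, 4 lay above 0 in hypothalamus and 0 passed. At an unadjusted limma p under 0.05 stood 2 of the 5, Rora among them, against 9.92% of all genes. Whether thalamic tissue in the dissected samples had a part in the Rora values was not tested.

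Per1 and Per2 are also known targets of the glucocorticoid receptor, so other responsive genes are given beside them. All 8 were tested in each tissue, and 0 passed. In choroid plexus 4 lay above 0, and the most abundant, Sgk1, Klf9 and Sult1a1, differed by -0.09, -0.08 and 0.27. Sult1a1 was 569.7 to 813 in controls and 751 to 967 with Ins2 (limma unadjusted p = 0.0118, adjusted p = 0.672). Fkbp5, a classical glucocorticoid target named after its values were seen, was 194 to 338 in controls and 257 to 395 with Ins2 (0.29 ± 0.15 SE; limma unadjusted p = 0.0707, adjusted p = 0.815), and both genes exceeded the control mean in 6 of 6 Ins2 libraries. Tsc22d3, of the same list, was 372 to 759 in choroid plexus controls and 391 to 637 with Ins2. In all, 4 of the 8 genes lay below 0 in that tissue. In hypothalamus 6 lay above 0, and Sgk1, Tsc22d3 and Klf9 differed by 0.13, 0.11 and 0.20 (Klf9 limma unadjusted p = 0.00347, adjusted p = 0.332). The Klf9 groups overlapped, at 3246 to 3895 in controls and 3643 to 4535 with Ins2. Whether hormone state or collection time had a part in the Per2 values was not tested.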

How the data were processed

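Libraries were strand-marked and poly(A)-selected, per the labels' protocols. HISAT2, featureCounts, DESeq2 and the mouse build GRCm38 (mm10) are named in the submitters' processing notes. Versions and the counting's strand setting: not given in the sources used here. The deposited signal values are gene read counts that the authors divided by DESeq2 size factors, per the labels, in a separate table for each tissue. Every value was a whole multiple (tolerance 0.02) of its library's smallest step, which recovered the reads.

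Each tissue was fitted on its own with limma 3.58.1 (R 4.3.3, trended eBayes, no covariate) on log2(value + 1). Genes needed a mean of 10 or more, and Benjamini-Hochberg adjustment over all of them was read at 0.05. Differences therefore understate changes of low genes. Recovered reads were also tested with edgeR 4.0.16 and DESeq2 1.42.0. The limma script was tested on simulated data with known changes. Gene models were GENCODE M21. Correlations and motif searches used Python 3.11.15.

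Members and lists were chosen with earlier results of these data known. All 10 members are described. Other genes were named by rule: 6 clock genes and any that passed, the 5 genes most like Per2 or Dbp, and the 3 most abundant of each further list. Exceptions, named after their values were seen, were Rora, Arntl2, Fbxl21, Fkbp5, Tsc22d3 in choroid plexus, Cd74, Vip, Nms and Prok2, and markers that set a library apart. The alternatives were another pseudocount, filter, scaling or tool, array weights, a replicate block and libraries left out.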

Additional observations from a re-analysis of the deposited data

How the results depend on the processing

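The number of members past the threshold stayed at 0 in both tissues in each limma and edgeR alternative run and when any 1 library was left out, while DESeq2 called 1 member in choroid plexus, Per2 (0.44). For choroid plexus Per2 the log2 difference ranged from 0.35 to 0.49 over 21 alternatives, with an adjusted p of 0.0179 to 0.824. Counts of genes past the threshold, 2 in choroid plexus and 0 in hypothalamus, became 34 and 41 with DESeq2. In choroid plexus they became 6 with array weights and 1 with a mean value of at least 50. Leaving out 1 library gave 1 to 4 genes in choroid plexus (1 without control 4, Ins2 library 1 or Ins2 library 4, and 4 without Ins2 library 5) and 0 to 18 in hypothalamus (18 without control 6 and 1 without control 4). Members near 0 changed sign, none past the threshold. In choroid plexus Dbp was 0.020 with equal totals, 0.011 with edgeR and 0.0059 with DESeq2, and Nr1d2 was -0.032 with array weights. Without controls 2 and 5 together, Cry1 was -0.067, Clock 0.028, Nr1d2 -0.024 and Tef -0.020. With 1 library left out, Per1 ran from -0.099 to 0.067, Cry1 from -0.046 to 0.13, Nr1d1 from -0.026 to 0.20, Nr1d2 from -0.036 to 0.038 and Dbp from -0.066 to 0.089 in choroid plexus, and Per3 from -0.098 to 0.023 and Cry1 from -0.033 to 0.054 in hypothalamus. The difference between the tissues ran from -0.064 to 0.11 for Cry1, -0.012 to 0.072 for Cry2, -0.044 to 0.069 for Clock and -0.084 to 0.042 for Tef, and for Tef it was 0.029 with equal totals. The causes of these changes were not tested. No relation among members passed under any alternative run. For 10 of 10 members in each tissue the largest counting error of any library was below the gene's own within-group SD, most narrowly for hypothalamic Nr1d2 (0.0246 against 0.0410 log2 units).

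Same-numbered libraries were not paired by the labels, and their deviations correlated at -0.15 to 0.14 in choroid plexus and -0.07 to 0.01 in hypothalamus, with none correlating best with its own number. With the replicate number as a block, only numbers present in both groups were kept. That dropped Ins2 library 6 in choroid plexus, and control 6 and Ins2 library 5 in hypothalamus. The counts were then 2 genes in choroid plexus and 57 in hypothalamus, 0 members passed, and Nr1d2 in choroid plexus was -0.011. Leaving out control 6 alone, without a block, gave 18 genes in hypothalamus. The effect of the block itself was not separated from that of the dropped libraries.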

Other observations

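Genes listed for the suprachiasmatic nucleus, the site of the master clock, were all present in hypothalamus, with 11 of 11 tested, 8 above 0 and 0 passing the limma test. The list is not specific to that nucleus, since Avp is also among the hypothalamic neuron markers. Avp, which encodes vasopressin, was 11134 ± 2855 (SD, n = 5) in controls and 10897 ± 1462 (SD, n = 5) with Ins2, Rgs16, a regulator of G-protein signalling, was 1027 ± 316 and 1114 ± 34.8, and Gpr176, an orphan receptor, was 901 ± 33.6 and 917 ± 115. Control 2 was the lowest library for Vip, at 65.0 against 384 to 768 in the other 9, for Nms, at 10.3 against 22.8 to 78.2, and for Prok2, at 13.7 against 38.1 or more, genes chosen for mention after their values were seen. It was not the lowest for Avp, at 8924 against 8113 in control 4. In choroid plexus 3 of the 11, Nms, Prok2 and Six6, were at 0 in every library, and the 3 tested all lay below 0 with 0 passing. Gpr176 was 198 to 284 in choroid plexus controls and 117 to 220.4 with Ins2 (log2 difference -0.45 ± 0.15 SE; limma unadjusted p = 0.00856, adjusted p = 0.631), with 0 of 6 Ins2 libraries above the control mean. Avp differed by -1.19 ± 1.29 (SE), with 577 in control 2 and at most 6.58 elsewhere, and Vipr2, a receptor for the Vip peptide, by -0.39 ± 0.47 (SE). The 10 immediate early genes, which respond within minutes to stimulation, had 6 tested in choroid plexus and 10 in hypothalamus, and 0 passed in either. Dusp1, Nr4a1 and Junb differed by 0.01, -0.04 and 0.06 in choroid plexus, and Egr1, Nr4a1 and Junb by 0.03, -0.06 and 0.02 in hypothalamus, on the log2 scale.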
